A study of Mus musculus with 8 samples.

Results

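The cardiac myosin heavy and light chain genes were examined in pharyngeal mesoderm and hearts of embryos with and without Isl1. These genes were Myh6, Myh7, Myh7b, Myl2, Myl3, Myl4 and Myl7. They were the 7 symbols of this name among the 20701 gene symbols of the deposited count table, each read from its transcript entry with the highest summed raw count. The transcription factor Isl1, which carries a homeodomain and LIM domains, acts in progenitors of the heart, and the study asked what its loss changes in the forming heart. RNA was sequenced from the pharyngeal mesoderm and hearts of 8 mouse embryos of strain C57BL/6 at E8.75, with 6 somites. The genotype was wild-type in 4 of them and Isl1-/- in the other 4, every embryo gave 1 library, and neither group carried another allele or treatment per the labels, which give the mutant allele only as Isl1-/-.

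Myosin is the motor of the sarcomere. Each molecule is built from a pair of heavy chains, which bind actin and hydrolyse ATP, and every heavy chain carries an essential and a regulatory light chain on its lever arm. The heart uses isoforms that become chamber-biased as it forms. Myh6 (alpha heavy chain), Myl7 (atrial regulatory light chain) and Myl4 (atrial essential light chain) are the atrial members of their pairs in the mature mouse heart, although Myh6 also becomes the main heavy chain of the adult mouse ventricle and Myl4 and Myl7 are widely expressed in the early heart tube. Myh7 (beta heavy chain), Myl2 (ventricular regulatory light chain) and Myl3 (ventricular essential light chain, also used in slow skeletal muscle) are their counterparts. Myh7b is a slow-type heavy chain gene that hosts a microRNA in an intron and is expressed far below Myh6 and Myh7.

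The sequences of the isoform pairs set how well their reads could be told apart, so they are given first. Coordinates are on mm9 (NCBIM37) with the gene models of GENCODE vM1. Myh6 (chr14:55560758-55585764, minus strand) and Myh7 (chr14:55589525-55613471, minus strand) lie next to each other on chromosome 14. Their coding sequences were identical at 91.7% of aligned bases, and 23.8% of all 50-base windows of Myh6 occurred unchanged in Myh7. Of 75-base windows the share was 16.4%. The longest run common to both measured 245 bases, in exons 30 and 31 of 39 of Myh6 (chr14:55567164-55567562) and in exons 32 and 33 of 41 of Myh7 (chr14:55593784-55594184). It is shown because a read inside it cannot be assigned to either gene from its letters. How such reads were counted was not stated, so the split between Myh6 and Myh7 is uncertain to that extent.
Myh6 and Myh7, shared run: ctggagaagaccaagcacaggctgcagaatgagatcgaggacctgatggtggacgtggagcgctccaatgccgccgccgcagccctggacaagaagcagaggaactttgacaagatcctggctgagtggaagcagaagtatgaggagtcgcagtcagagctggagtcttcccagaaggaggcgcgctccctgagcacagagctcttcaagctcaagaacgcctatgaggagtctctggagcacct

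The light chain pairs shared far less. Myl7 (chr11:5796640-5798785, minus strand) and Myl2 (chr5:122550960-122563481, plus strand) were identical at 64.3% of aligned coding bases, with a longest common run of 16 bases. Myl4 (chr11:104411977-104457067, plus strand) and Myl3 (chr9:110666150-110672308, plus strand) were identical at 78.1%, with a longest common run of 29 bases. No window of 50 bases was common to either light chain pair (0 shared windows). Myh7b lies at chr2:155436948-155460043 on the plus strand. Reads of both strands had been counted, and exons on the opposite strand overlapped Myh7b by 37 bases (Trpc4ap) and Myl4 by 3 bases (Gm11665), so reads in those stretches could come from either gene. The 60 aligned coding bases in which each pair was least alike are given below, with capitals marking the bases that differ between the pair members.
Myh6 (chr14:55571140-55571436, exons 24 and 25): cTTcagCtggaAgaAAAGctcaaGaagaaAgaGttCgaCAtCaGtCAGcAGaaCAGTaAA
Myh7 (chr14:55599215-55601028, exons 26 and 27): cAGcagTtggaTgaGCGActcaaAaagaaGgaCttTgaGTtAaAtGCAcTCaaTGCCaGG
Myl7 (chr11:5797888-5798170, exons 3 and 4): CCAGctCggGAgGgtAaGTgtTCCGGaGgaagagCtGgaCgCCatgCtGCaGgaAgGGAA
Myl2 (chr5:122552773-122553891, exons 3 and 4): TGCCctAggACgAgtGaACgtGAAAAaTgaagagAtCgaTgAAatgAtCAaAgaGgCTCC
Myl4 (chr11:104445903-104446286, exons 6 and 7): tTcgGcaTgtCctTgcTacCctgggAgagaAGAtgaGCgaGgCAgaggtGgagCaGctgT
Myl3 (chr9:110670562-110671641, exons 4 and 5): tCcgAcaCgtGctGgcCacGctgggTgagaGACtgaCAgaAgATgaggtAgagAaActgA

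In these windows 27 of 60 bases differed between the heavy chains, 31 between the regulatory light chains and 20 between the essential light chains. Each window crossed an exon junction, so the coordinates include the intron between the exons.

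Libraries held 23480470 to 26153039 counted reads in wild-type and 18916452 to 25047013 in knockout embryos. Counts scaled to library size are given as CPM (per 1e6 reads). Isl1 itself, the targeted gene, spanned 9.72 to 26.9 CPM in wild-type and 1.78 to 2.40 CPM in knockout embryos, without overlap. A pair of libraries stood apart for the genes described here. In the labels, the molecule of knockout embryo 2 is total RNA, whereas 7 libraries are labelled polyA RNA. Wild-type embryo 3 had the lowest summed level of 6 cardiomyocyte markers in its group, 1605 CPM, where the remaining wild-type libraries held 2291 to 2532 CPM. Every library held cardiac RNA by these markers, since the lowest sum, in knockout embryo 2, was 940 CPM.

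All 7 genes had lower mean levels in the knockout than in the wild-type embryos. Both major heavy chains, one ventricular light chain and both atrial light chains fell, that is, Myh6, Myh7, Myl3, Myl4 and Myl7 passed an edgeR FDR of 0.05 over all genes. Myl2 and Myh7b did not pass. The calls of Myh6, Myl3 and Myl4 each ended when certain single embryos were left out, as given below, and those of Myh7 and Myl7 did not. Of the 14075 genes tested, 0.973% passed in either direction and 0.867% were lower in the knockout, against 5 of the 7 myosin genes. The mean remaining level in CPM ran from 44.1% of wild-type for Myh7 to 60.2% for Myh7b. By CPM, the groups did not overlap in 6 of the 7 genes, Myl2 excepted, against 6.33% of all genes tested that were lower without overlap. Together the 7 genes took 0.194% ± 0.0270 of all counted reads in the wild-type group and 0.1001% ± 0.0190 in the knockout group (SD, n = 4). In a mixed dissection, fewer cardiomyocytes and less myosin RNA per cardiomyocyte cannot be told apart.

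**Figure D1:**
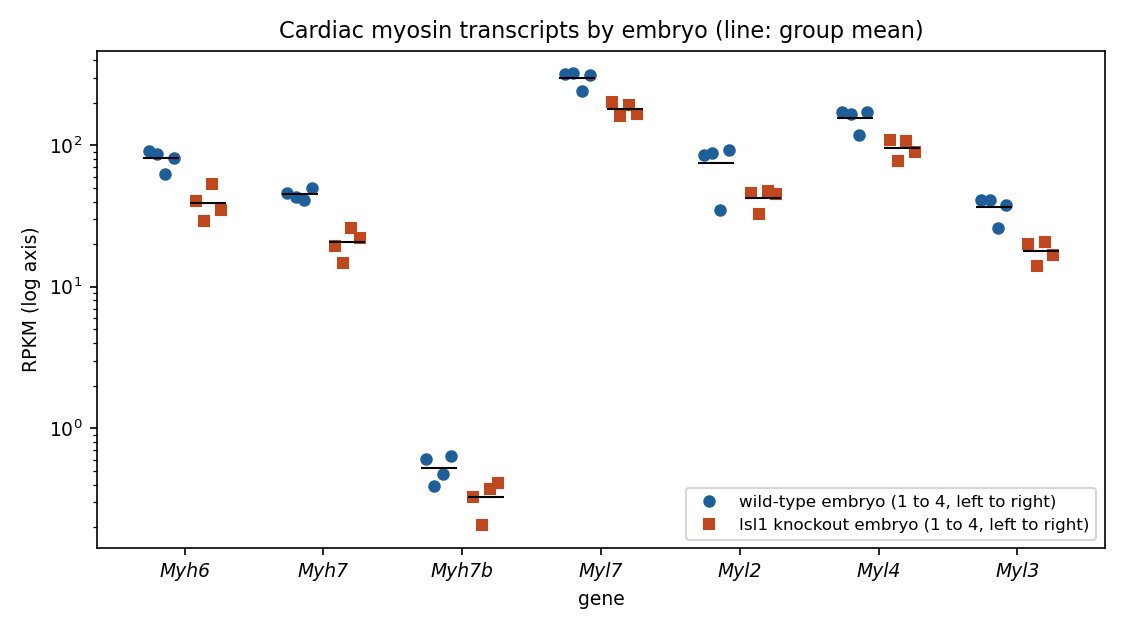
Levels of the 7 cardiac myosin genes in RPKM (counted reads per 1e6 reads and kilobase, log axis) in each of 4 wild-type (circles) and 4 Isl1 knockout embryos (squares), with lines at group means. Myl7 was the most abundant in both genotypes, Myh7b lay below 1 RPKM throughout, and the groups overlapped in Myl2 and Myh7b.

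Among the heavy chains, Myh6 was the more abundant. Wild-type embryos 1 to 4 had 91.7, 86.7, 62.2 and 81.6 RPKM of Myh6, a level per transcript length, and knockout embryos 1 to 4 had 40.5, 29.0, 52.9 and 34.9 RPKM. Every knockout embryo lay below every wild-type embryo, although wild-type embryo 3 came within 9.32 RPKM of knockout embryo 3. The fold change of Myh6 was -1.09 on the log2 scale (SE 0.18, edgeR FDR 0.0225).

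For Myh7, the beta heavy chain, the wild-type embryos gave 46.3, 43.2, 40.7 and 49.4 RPKM, and the knockout embryos gave 19.5, 14.7, 26.0 and 22.1 RPKM. The wild-type embryos were close to each other, at 44.9 ± 3.77 RPKM (SD, n = 4), and the groups were well apart. Myh7 had the largest fall of the 7 genes, with a log2 fold change of -1.18 (SE 0.15, edgeR FDR 0.00453).

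Myh7b was scarce, with wild-type levels of 0.602, 0.390, 0.473 and 0.637 RPKM and knockout levels of 0.326, 0.206, 0.372 and 0.411 RPKM. Wild-type embryo 2 lay inside the range of the knockout embryos on this scale, while in CPM, which were scaled between libraries, the lowest wild-type embryo (4.17) was just above the highest knockout embryo (4.11). These values rest on 51 to 171 reads per library. The log2 fold change was -0.74 (SE 0.23) and did not pass the threshold (edgeR FDR 0.155). Myh7b made up 0.420% ± 0.0822 of the heavy chain transcripts per length in wild-type and 0.553% ± 0.117 in knockout embryos (SD, n = 4).

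Of the regulatory light chains, Myl7 was the most abundant gene of all 7. It reached 317, 322, 243 and 315 RPKM in wild-type embryos, and knockout embryos held 203, 160, 193 and 166 RPKM. Again wild-type embryo 3 was the lowest of its group, but the groups did not overlap. The log2 fold change of Myl7 was -0.79 (SE 0.11, edgeR FDR 0.00811).

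Its ventricular counterpart Myl2 had wild-type levels of 85.9, 88.2, 34.7 and 92.3 RPKM, and knockout levels of 45.8, 32.8, 47.2 and 45.0 RPKM. Wild-type embryos 1, 2 and 4 lay close together above all knockout embryos, and wild-type embryo 3 lay below 3 of the 4. Over all 8 libraries Myl2 had a log2 fold change of -0.88 (SE 0.27, edgeR FDR 0.145). Without wild-type embryo 3 it was -1.12 (SE 0.11, edgeR FDR 0.00256), so whether Myl2 passed the threshold rested on this library.

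For the essential light chain Myl4, wild-type embryos gave 172.2, 165.7, 117.3 and 172.2 RPKM, and knockout embryos gave 108.0, 77.9, 106.3 and 89.3 RPKM. Wild-type embryo 3 was 9.32 RPKM above the highest knockout embryo and the other wild-type embryos were far above it. Myl4 had a log2 fold change of -0.78 (SE 0.14, edgeR FDR 0.0358).

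Its counterpart Myl3 stood at 40.9, 41.1, 26.0 and 38.1 RPKM in wild-type embryos, and at 20.2, 13.9, 20.8 and 16.7 RPKM in knockout embryos. The groups did not overlap, with wild-type embryo 3 nearest to the knockout embryos. The log2 fold change of Myl3 was -1.09 (SE 0.17, edgeR FDR 0.0160).

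The order of the genes by mean RPKM was similar in both genotypes. In the wild-type it ran Myl7 (299 ± 37.5), Myl4 (157 ± 26.6), Myh6 (80.6 ± 12.9), Myl2 (75.3 ± 27.2), Myh7 (44.9 ± 3.77), Myl3 (36.5 ± 7.15) and Myh7b (0.525 ± 0.115; SD, n = 4). In the knockout Myl2 (42.7 ± 6.67) and Myh6 (39.3 ± 10.2) stood in the reverse order, and the remaining genes kept their places. Without wild-type embryo 3 the wild-type means were 88.8 RPKM for Myl2 and 86.7 RPKM for Myh6, the same order as in the knockout, so the reversal rested on that embryo. The ranges of Myh6 and Myl2 overlapped in both genotypes, so these neighbours did not differ beyond their spread. Myl7 was above Myl4, and Myl4 above the next gene, in every embryo. Myh7 and Myl3 also overlapped in range in both genotypes, yet within embryos Myh7 was higher in 4 of 4 wild-type and 3 of 4 knockout embryos.

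**Figure D2:**
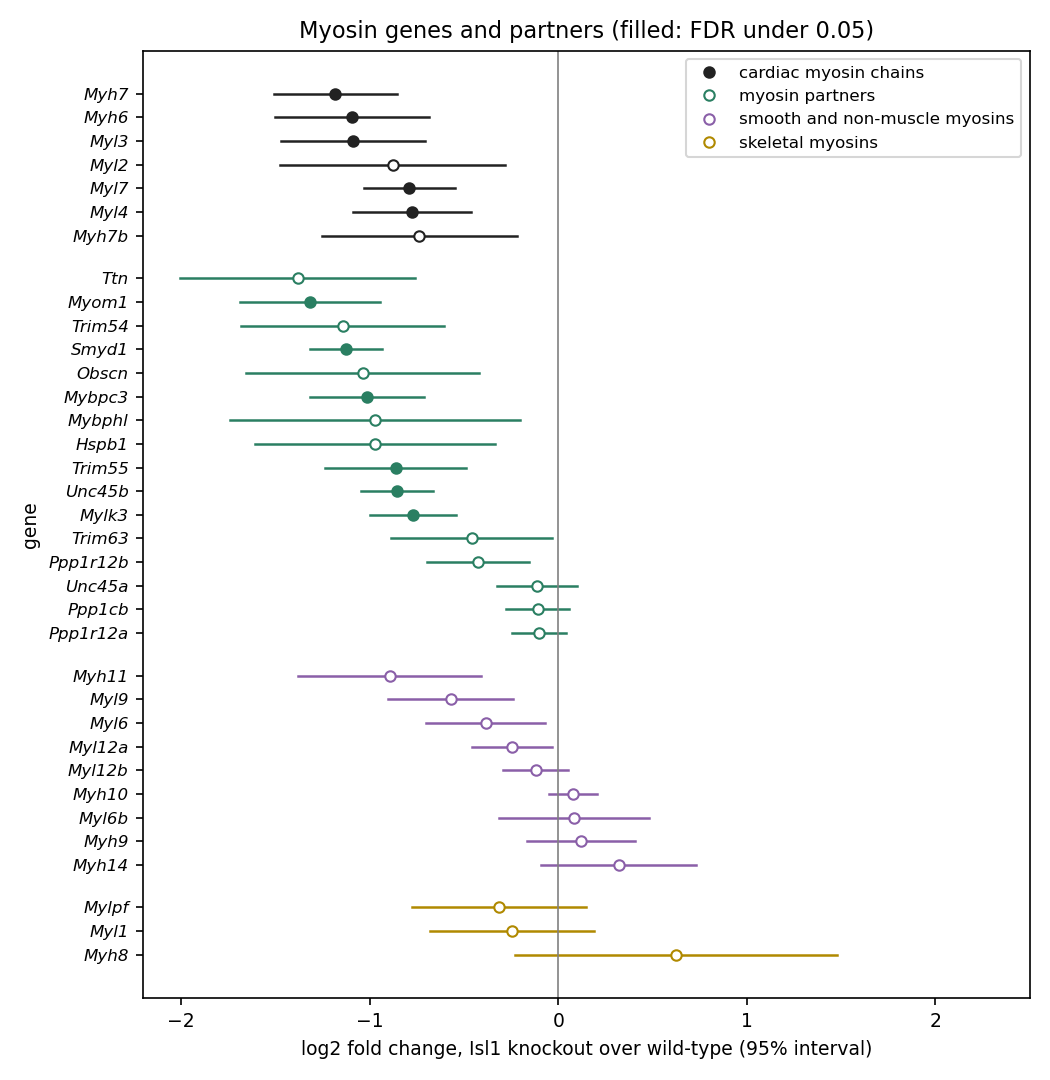
Log2 fold changes of Isl1 knockout over wild-type from edgeR, with 95% intervals, for the 7 cardiac myosin genes and for the tested genes of 3 related lists. Filled points passed an FDR of 0.05. All 7 cardiac myosin genes and all 16 tested myosin partners lay below 0. No smooth, non-muscle or skeletal myosin passed, where 0.973% of all genes tested did.

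Wild-type embryo 3 and knockout embryo 2 were the lowest of their genotype for most of these genes. Wild-type embryo 3 was lowest in 6 of the 7 genes by CPM, Myh7b excepted, and knockout embryo 2 in 7 of 7. On the log2 scale Myl2 of wild-type embryo 3 lay 1.03 below its group mean, and its other genes lay between 0.13 and 0.47 below. In knockout embryo 2 the shortfall ran from 0.14 for Myl7 to 0.58 for Myh7b. The summed level of the 6 primitive erythroid markers was 361 CPM in wild-type embryo 3 (1148 to 2323 CPM in the others of its group), and it was 3064 CPM in knockout embryo 2 (1232 to 1849 CPM in the others). Endoderm markers summed to 1136 CPM in wild-type embryo 3 (220 to 704 CPM in the others) and to 1775 CPM in knockout embryo 2 (194 to 1474 CPM in the others). The part of these other cell types in the myosin values was not tested. The number of myosin genes that passed depended on single embryos. Without wild-type embryo 1, 2 or 4, 2 of the 7 passed, Myh7 and Myl7, when 0.514%, 0.598% and 0.599% of all genes did. The same 2 passed without knockout embryo 4 (0.493% of all genes), and Myh7, Myl3 and Myl7 without knockout embryo 1 (0.571%). Without wild-type embryo 3, 6 of the 7 myosin genes passed, all but Myh7b, and 3.46% of all genes tested did. Without knockout embryo 2, when 0.974% of all genes passed, Myh6, Myh7, Myl3 and Myl7 passed, as they did without knockout embryo 3 (0.692% of all genes), and Myl4 had a log2 fold change of -0.69 (edgeR FDR 0.0647) in the former fit.

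**Figure D3:**
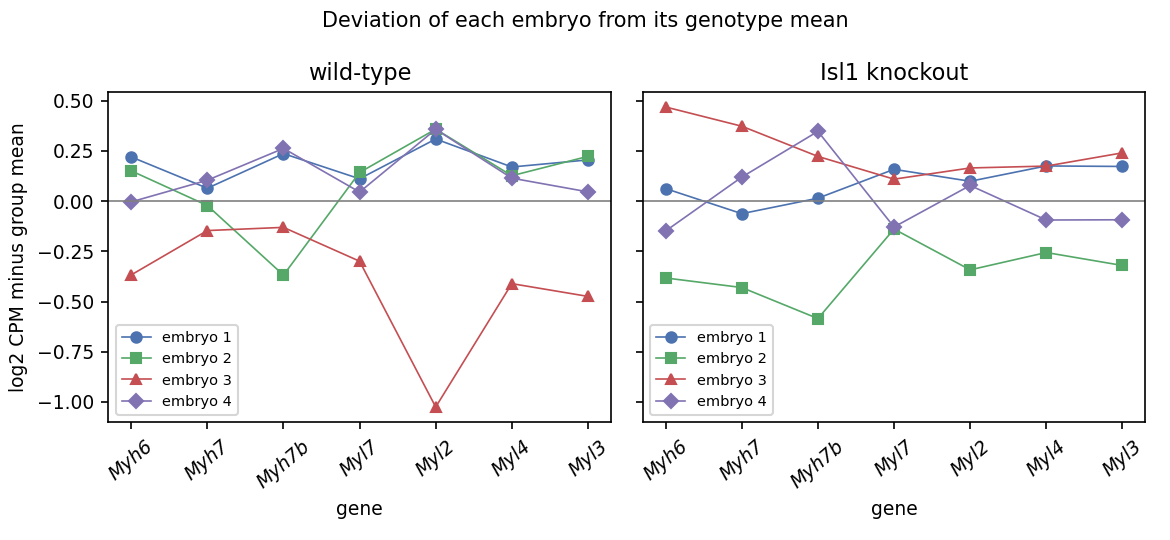
Deviation of each embryo from the mean of its genotype in log2 CPM, for the 7 cardiac myosin genes (left, wild-type; right, Isl1 knockout; lines join the genes of 1 embryo). Wild-type embryo 3 and knockout embryo 2 ran below 0 in every gene, and the lowest point was Myl2 of wild-type embryo 3.

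The atrial and ventricular isoforms of each pair were then compared within embryos, as the ratio of reads per kilobase of transcript with 0.5 added to each count, which does not depend on library size. For the heavy chains the log2 ratio of Myh6 to Myh7 had wild-type values of 0.99, 1.004, 0.61 and 0.72, and knockout values of 1.05, 0.98, 1.02 and 0.66. Both genotypes held embryos near 1 and embryos near 0.7, and the groups overlapped. The difference of the knockout from the wild-type mean was 0.10 (95% permutation interval -0.34 to 0.44; exact two-sided permutation test, p = 0.4571, adjusted over the 3 ratios 0.6857). Myh6 accounted for 64.0% ± 3.12 of the Myh6 and Myh7 reads per length in wild-type and for 65.5% ± 2.89 in knockout embryos (SD, n = 4).

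For the regulatory light chains the log2 ratio of Myl7 to Myl2 had wild-type values of 1.89, 1.87, 2.81 and 1.77, and knockout values of 2.15, 2.29, 2.03 and 1.88. Wild-type embryo 3 was far above all others, with 7.02 Myl7 reads per length for each of Myl2, where the remaining wild-type embryos had 3.41 to 3.69 and the knockout embryos 3.68 to 4.89. The group means differed by 0.0034 (95% permutation interval -0.93 to 0.52; exact two-sided permutation test, p = 0.9714, adjusted 0.9714). The interval allows a difference in either direction. Leaving out wild-type embryo 3 moved the difference to 0.25 (exact permutation p = 0.1143, adjusted 0.1714), and wild-type embryo 1 then lay 0.0051 above knockout embryo 4, with the groups still overlapping.

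For the essential light chains the log2 ratio of Myl4 to Myl3 had wild-type values of 2.07, 2.01, 2.17 and 2.18, and knockout values of 2.42, 2.48, 2.35 and 2.41. All 4 knockout embryos lay above all 4 wild-type embryos, wild-type embryo 3 and knockout embryo 2 included. The linear ratio averaged 4.32 ± 0.238 among wild-type and 5.34 ± 0.199 among knockout embryos (SD, n = 4), so that Myl4 made up 81.2% ± 0.854 and 84.2% ± 0.496 of the essential light chain reads per length. The difference was 0.31 on the log2 scale (95% permutation interval 0.17 to 0.47). By exact permutation, two-sided, p was 0.0286, the smallest that 4 against 4 embryos allow. After adjustment over the 3 ratios it was 0.0857, which did not pass 0.05. A ratio that reaches the smallest p alone among the 3 cannot pass this adjustment, so the adjusted value cannot decide whether the ratio differed. The ratio was higher in the knockout by 0.28 to 0.33 whichever embryo was left out.

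**Figure D4:**
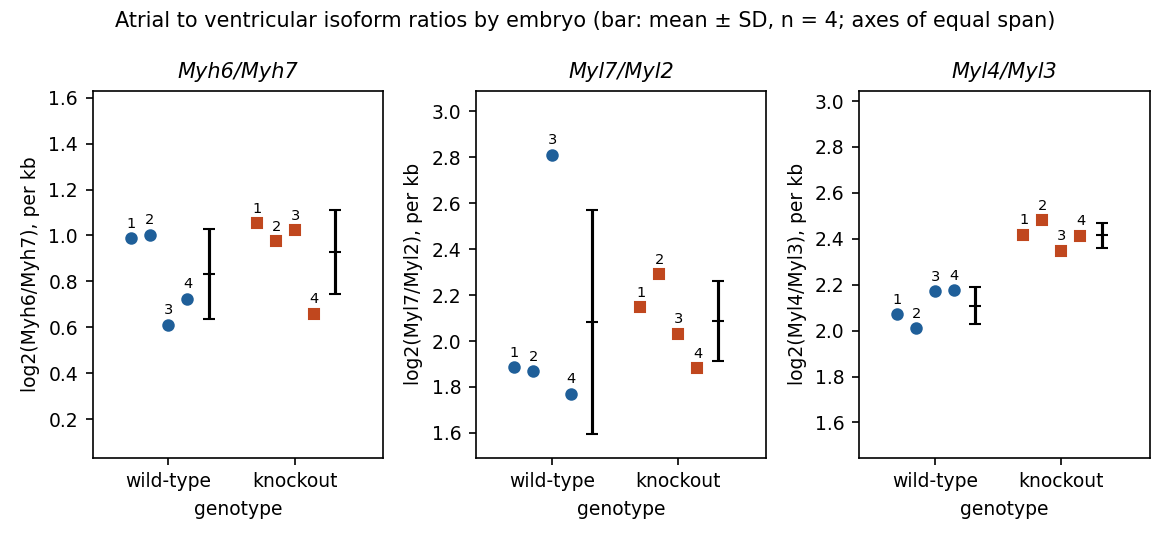
Log2 ratio of the atrial to the ventricular isoform per kilobase in each embryo for the heavy, regulatory light and essential light chains, with numbers naming the embryos and bars giving the mean ± SD (n = 4 per genotype). The groups overlapped for Myh6/Myh7 and Myl7/Myl2, and did not for Myl4/Myl3. The axes have equal spans but different centres.

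The balance between chain types was described without a test. Transcripts of the regulatory light chains (Myl2 and Myl7) numbered 1.94 ± 0.0367 per essential light chain transcript (Myl3 and Myl4) among wild-type and 1.98 ± 0.0920 among knockout embryos (SD, n = 4). Heavy chain transcripts were taken here as Myh6 and Myh7 together, without Myh7b. The essential light chains numbered 1.54, 1.59, 1.39 and 1.60 per heavy chain transcript among wild-type embryos. Among knockout embryos they numbered 2.13, 2.10, 1.61 and 1.86. The groups did not overlap, but knockout embryo 3 was within 0.01 of wild-type embryo 4. The regulatory light chains numbered 2.97 ± 0.207 per heavy chain transcript among wild-type and 3.83 ± 0.601 among knockout embryos, and here knockout embryo 3 (3.04) lay among the wild-type embryos.

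Each gene was also set against Tnnt2, cardiac troponin T, a thin filament gene of all cardiomyocytes. Tnnt2 itself fell, from 121 ± 8.84 to 67.9 ± 13.7 RPKM (SD, n = 4; log2 fold change -0.90, SE 0.13, edgeR FDR 0.00994). Relative to Tnnt2 the knockout means differed from the wild-type means by -0.30 (Myh7), -0.20 (Myh6), -0.17 (Myl3), 0.12 (Myl2), 0.13 (Myl7), 0.14 (Myl4) and 0.17 (Myh7b) on the log2 scale. The groups overlapped in all 7 of these ratios, so none separated the genotypes.

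Some genes whose products work on myosin fell as well. Of a list of 19 binding partners, chaperones and kinases, 16 could be tested and 6 fell, against the 0.867% of all genes given above. They were Myom1, Smyd1, Mybpc3, Trim55, Unc45b and Mylk3. The median log2 fold change was -0.92 over the 16 against 0.01 over all genes, and all 16 values were negative, but 10 did not pass. Myom1, which cross-links thick filaments at the M band, fell by 1.32 (edgeR FDR 0.00495). Smyd1, a muscle methyltransferase and partner of myosin assembly, fell by 1.13 (edgeR FDR 0.00174). Mybpc3, cardiac myosin-binding protein C, fell by 1.01 (edgeR FDR 0.00669). Unc45b, the muscle myosin chaperone, fell by 0.85 and Mylk3, the cardiac myosin light chain kinase that acts on Myl2, fell by 0.77 on the same scale. The general chaperone Unc45a, at -0.11, and the myosin phosphatase subunits Ppp1cb, at -0.11, and Ppp1r12a, at -0.10, did not pass. Without wild-type embryo 3, 9 of the 16 fell, when 2.71% of all genes did. The count was 6 without knockout embryo 3 and 5 without any other single embryo, when 0.472% to 0.741% of all genes fell.

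Myosins of other muscle and of non-muscle cells gave 0 calls in edgeR over all 8 libraries, where 0.973% of all genes passed. At that share, 0 calls among so few genes does not show that these myosins were unchanged. Of 9 smooth muscle and non-muscle myosin genes all 9 were tested, with a median log2 fold change of -0.12 and 4 at an unadjusted edgeR p under 0.05, which 17.4% of all genes reached. DESeq2, which called 4.97% of all genes, called 2 of the 9, Myh11 and Myl9, and limma, which called 0.845%, called 0. Without wild-type embryo 3 edgeR called 1, Myl9, when 3.46% of all genes passed. The smooth muscle heavy chain Myh11 was at -0.89 (edgeR FDR 0.0866), and the non-muscle heavy chains Myh9 and Myh10 were at 0.12 and 0.08. Of 8 skeletal myosins 3 passed the count filter, with a median of -0.24 and 0 at an unadjusted edgeR p under 0.05, and DESeq2 and limma also called 0. The intronic microRNA precursors of the heavy chain genes, 3 in all, had no entries among the deposited counts under the symbols searched, so they were not tested.

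Among 16 chamber identity factors and chamber genes, 15 were tested and 4 fell, against 0.867% of all genes tested. The median log2 fold change of the 15 was -0.60, against 0.01 over all genes. Nkx2-5, a homeobox factor of the cardiac lineage, fell by 1.40 (edgeR FDR 0.00186). Tbx5, a T-box factor of the atria and left ventricle, fell by 1.17 (edgeR FDR 0.00304), and the T-box factor Tbx20 fell by 1.13 (edgeR FDR 0.00186). Mef2c, a MADS-box activator of muscle genes, fell by 0.73 (edgeR FDR 0.00985). Irx4, a ventricular homeobox factor, was at -0.60 (edgeR FDR 0.0621) and the ventricular repressor Hey2 at -0.23, neither past the threshold in edgeR over all libraries. Nr2f2, an atrial identity factor, was at 0.06 (edgeR FDR 0.864). Without wild-type embryo 3, 7 of the 15 fell in edgeR, Irx4 among them, when 2.71% of all genes did. DESeq2, under which 3.29% of all genes fell, also called 7 of the 15 lower, Irx4 among them. In limma, under which 0.668% of all genes fell, 4 did, without Irx4. Of the 6 cardiomyocyte markers 5 fell (median -0.96), against the same 0.867% of all genes. For other cell types, 0 of 6 endothelial (median -0.12), 0 of 6 erythroid (0.49) and 0 of 7 endoderm markers (0.15) passed. Likewise 0 of 5 neural tube (0.03), 0 of 3 neural crest (0.30) and 0 of 4 tested head muscle and somite markers (0.33) passed. The count was also 0 in each of these last 6 lists at an unadjusted edgeR p under 0.05 (17.4% of all genes). It was 0 as well in DESeq2 (4.97% of all genes) and in limma (0.845%). With 0.973% of all genes passing in edgeR, 0 calls in lists this short does not show that these cell types were unchanged. All 6 erythroid values were positive, with SE from 0.38 to 0.60. The cardiomyocyte marker list shares Ttn with the myosin partners and Nkx2-5 with the chamber genes. Without wild-type embryo 3 all 6 of its genes passed, when 3.46% of all genes did. The count was 4 without knockout embryo 1 (0.571% of all genes) or 3 (0.692%). It was 3 without any other single embryo, when 0.493% to 0.974% of all genes passed.

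The genes whose levels ran most closely with each myosin gene over the 8 libraries were then listed. Likeness was Pearson's r of log2 CPM, and since 4 of the libraries were knockouts it holds the genotype difference as well as the spread within groups. Nearest to Myh6 were Mybpc3 (0.992), Tnnt2 (0.990) and Ppp1r17 (0.986). For Myh7 they were Slc8a1, the cardiac sodium-calcium exchanger (0.994), Alpk3 (0.994) and Myom1 (0.993). Myl7 ran with Tnnc1, cardiac troponin C (0.994), Sh3bgr (0.993) and Crip2 (0.993), Myl4 with Trim55 (0.997), Tnni1 (0.992) and Actc1, cardiac actin (0.989), and Myl3 with Crip2 (0.992), Actn2 (0.990) and Trim55 (0.990). Nearest to Myh7b were Fam222a (0.986), Cacna1c, a cardiac calcium channel subunit (0.975), and Pkdrej (0.967), and nearest to Myl2 were Nudt19 (0.984), Pygm, muscle glycogen phosphorylase (0.983), and Srsf7 (0.983). Among the myosin genes themselves, Myl3 and Myl4 ran most closely (r = 0.995), and with the group means removed r was 0.984 for that pair and 0.222 for Myh7b and Myl7.

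The promoters of the 7 genes were searched on both strands for short binding motifs. Each was the 250 bases on mm9 before the start of the coding transcript nearest in length to the kept entry. The 22363 promoters set beside them used the longest coding transcript of each gene, a different rule. The Myh6 window lay inside the annotated bounds of that gene, which end at chr14:55585764. A CArG box, the binding motif of serum response factor, occurred in Myl3 (first base 53 before the start) and Myl7 (61 before), against 1.31% of 22363 promoters. A MEF2 motif occurred in Myl2 (26 before), against 2.81% of promoters. The letters AAGTG, the core of the Nkx2-5 motif, occurred in 5 of 7, Myh6, Myh7, Myl2, Myl4 and Myl7, and in 39.6% of all promoters. GATAA was found in Myh7b and Myl7 (21.1% of promoters), TAATG, a core of the Isl1 motif, in Myl2 (21.8%), and TATAAA in 0 of 7 (12.2%). On these windows the CArG and MEF2 matches set apart 3 light chain promoters, which are given here with the matched letters of any of these motifs in capitals.
Myl7 (chr11:5798786-5799035, minus strand): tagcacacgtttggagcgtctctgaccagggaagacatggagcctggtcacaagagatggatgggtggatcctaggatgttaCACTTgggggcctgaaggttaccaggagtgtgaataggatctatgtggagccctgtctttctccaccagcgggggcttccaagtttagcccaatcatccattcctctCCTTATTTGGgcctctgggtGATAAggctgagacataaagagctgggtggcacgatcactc
Myl2 (chr5:122550710-122550959, plus strand): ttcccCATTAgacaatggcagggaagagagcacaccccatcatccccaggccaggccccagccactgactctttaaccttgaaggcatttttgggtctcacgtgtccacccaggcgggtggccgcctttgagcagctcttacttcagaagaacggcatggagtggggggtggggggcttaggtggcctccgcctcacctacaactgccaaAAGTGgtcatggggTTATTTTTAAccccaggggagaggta
Myl3 (chr9:110665900-110666149, plus strand): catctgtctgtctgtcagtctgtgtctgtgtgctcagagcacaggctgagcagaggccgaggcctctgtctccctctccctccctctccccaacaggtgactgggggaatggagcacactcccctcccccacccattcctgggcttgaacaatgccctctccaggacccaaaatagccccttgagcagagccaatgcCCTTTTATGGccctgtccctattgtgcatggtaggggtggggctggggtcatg

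A match of this kind is a description of the letters, and binding at these promoters was not tested. Other starts of these genes were not searched, so a window without a match does not show that the gene lacks the motif.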

How the data were processed

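RNA sequencing covered single embryos, 4 wild-type and 4 Isl1-/-, grouped by the titles and genotype labels. The authors mapped reads to mm9 with STAR and counted them over exons of RefSeq transcripts with HOMER on both strands without adjustment, so the deposited counts are raw read counts per transcript entry; versions are not given in the sources used here. The authors derived the deposited RPKM values in edgeR, and these could be recomputed from the counts to within 0.000492. The deposited columns of the authors' DESeq2 comparison (mean signal, log2 fold change and its error, score, p-value and adjusted p-value) were not used.

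For each of 20701 symbols the entry with the highest summed count was kept (31507 entries). The count model was edgeR 4.0.16 in R 4.3.3. After filterByExpr, 14075 genes were left, all 7 myosin genes among them. Counts were scaled by TMM and fitted with genotype as the single term (glmQLFit and glmQLFTest). Tests were two-sided, with Benjamini-Hochberg FDR over all genes and a threshold of 0.05. CPM values are TMM-scaled. Isoform ratios used counts plus 0.5 per kilobase and exact two-sided permutation tests in scipy 1.17.1, whose intervals hold the shifts the same test does not reject at 0.05. Alternatives were RLE size factors, no count filter, summed entries, a Y-linked covariate, a replicate block, DESeq2 1.42.0, limma 3.58.1 on log2(RPKM + 1), a pseudocount of 5 counts and leaving out each embryo. The edgeR fit was tested on simulated data. Sequences were read from NCBIM37, and tables and plots were made with pandas 2.3.3, numpy 2.4.6 and matplotlib 3.10.9 in Python 3.11.15. All 7 myosin genes, Isl1, the 3 largest absolute fold changes among the passing genes of each related list, and the 3 nearest genes by r were named by rule; other genes of the lists were named as examples after their values were seen. The myosin genes and lists were chosen with earlier results of these data known.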

Additional observations from a re-analysis of the deposited data

Results flagged for a closer look

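Of 20 groups of 4 embryos examined for a single far value (the CPM of 7 genes and 3 log2 ratios in each genotype), 3 were flagged, and chance flags about 1 in 20. All 3 came from wild-type embryo 3, and they share that library. Its Myl2 level was 37.0 CPM, against 93.4 to 96.7 CPM in the other wild-type embryos. Its Myl4 level was 175 CPM, against 252 to 262 CPM. Its log2 ratio of Myl7 to Myl2 was 2.81, against 1.77 to 1.89. The erythroid, endoderm and cardiomyocyte marker sums of this library are given with the results, and their part in these values was not tested.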

How the results depend on the processing

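All 7 log2 fold changes stayed negative under every alternative run. Myh7 and Myl7 passed in each of them, including the 8 fits without 1 embryo, and Myh7b in none. The other calls were less stable. The number of the 7 genes past the threshold was 5 under 5 of the 7 other settings. In these 5 settings the share of all genes that passed ran from 0.718% (Y-linked covariate) to 4.97% (DESeq2). The number was 4 under limma (Myl4 -0.71, FDR 0.0654), where 0.845% of all genes passed, and 2 with the replicate block (0.54% of all genes). It was 2 to 6 without 1 embryo, when 0.493% to 3.46% of all genes passed. With the replicate number as a block, Myh6 was at -1.12 (edgeR FDR 0.0744), Myl3 at -1.08 (0.0674) and Myl4 at -0.77 (0.0954), and the exact sign-flip test of the Myl4 to Myl3 ratio gave p = 0.125, the smallest it allows. Same-numbered embryos deviated together at r = 0.109, 0.212, 0.086 and 0.507. Whether the numbers pair the samples cannot be decided from so few values. Without 1 embryo the log2 fold change ran from -1.27 to -0.97 (Myh6, passing without wild-type embryo 3, knockout embryo 2 or knockout embryo 3), -1.32 to -1.05 (Myh7), -0.86 to -0.57 (Myh7b), -1.12 to -0.77 (Myl2, passing without wild-type embryo 3), -1.22 to -0.98 (Myl3, lost without wild-type embryo 1, 2 or 4 or knockout embryo 4), -0.90 to -0.69 (Myl4, passing without wild-type embryo 3) and -0.88 to -0.74 (Myl7). The Myl7 to Myl2 difference ran from -0.10 to 0.25, turning negative without wild-type embryo 1 (-0.06), 2 (-0.07) or 4 (-0.10) or knockout embryo 1 (-0.02) or 2 (-0.06). The Myh6 to Myh7 difference ran from 0.02 to 0.19 and that of Myl4 to Myl3 from 0.28 to 0.33, where 3 against 4 embryos cannot give a p below 0.0571. Over all genes, 137 passed (15 higher, 122 lower); 76 with the block (4 higher, 72 lower), 699 in DESeq2 (236 higher, 463 lower), 5 higher with the Y-linked covariate and 25 higher in limma. Without 1 embryo 70 to 490 passed (3 to 106 higher, 67 to 384 lower), the most without wild-type embryo 3. The causes were not tested. Myh7b had 51 to 171 reads a library, and limma on log2(RPKM + 1), a scale that understates changes of low genes, gave it -0.20.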
